A study of Mus musculus with 10 samples.

Results

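The 4 CUT&RUN libraries described here came from cultured control MuSCs, the stem cells of skeletal muscle that are also known as satellite cells, and make up 4 of the 10 samples of the series. In CUT&RUN a nuclease tethered by an antibody cuts out the DNA around the target inside permeabilised cells, and these fragments are sequenced. Antibodies against histone H4 monomethylated at lysine 20 (H4K20me1) and against RNA polymerase II phosphorylated at serine 2 (Pol II S2P) were each used on 2 Ctrl libraries of the genotype Pax7CreERT/Suv4-20h1WT. The libraries with which they are compared once, 2 per antibody, carry Pax7CreERT/Suv4-20h1KO (sKO), in which the gene of the methyltransferase SUV4-20H1, also known as KMT5B, is inactivated. Both genotypes thus carry Pax7CreERT, a tamoxifen-inducible Cre driven by the satellite cell gene Pax7, so that deletion reaches Pax7-expressing cells. The labels give no age for the animals. The study's reporting summary names the 2 libraries of each antibody biological replicates, and the labels do not say whether they came from separate animals or cultures. The 2 IgG libraries of the series were not analysed here.

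H4K20me1 is written by KMT5A and is turned into H4K20me2 by KMT5B and KMT5C. It is known both from compacted chromatin, the inactive X chromosome among it, and from the bodies of transcribed genes. Serine 2 of the Pol II tail is phosphorylated as the polymerase leaves the promoter region, and the mark accompanies productive elongation. The question of the comparison was whether genes with Pol II S2P are those with H4K20me1 over their bodies.

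Each deposited value is a score, a whole number for one peak and one library that stands for coverage normalised by Drosophila spike-in DNA. A gene's score was the sum over all autosomal peaks listed with it, and its level was that sum divided by the length of the gene in kilobases (kb). A gene carried a mark if its sum was above 0 in both Ctrl libraries. Of 17386 autosomal genes listed with a peak, 17380 carried at least 1 mark. Both marks were carried by 7412 genes (42.6%), H4K20me1 alone by 6351 (36.5%) and Pol II S2P alone by 3617 (20.8%). The sets of peaks of the 2 marks differ in kind. H4K20me1 peaks were broad, with a median of 8400 bases, and covered 24.7% of the autosomes, while those of Pol II S2P were narrow, with a median of 375 bases, and covered 1.04%. Scores of the 2 marks were normalised in separate tables, so their sizes are not compared with each other.

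Within each mark the 2 Ctrl libraries ranked the genes almost alike. Spearman's rho between them was 0.99 over 13763 genes for H4K20me1 and 0.98 over 11029 genes for Pol II S2P. Library 2 was the higher one in 95.2% of these genes for H4K20me1 and in 89.8% for Pol II S2P, and its median ratio to library 1 was 1.33 for H4K20me1 and 1.34 for the polymerase, so levels below are given in library 1 and then in library 2, and a single level is the mean of both. The depth in reads cannot be read from the scores. The study's reporting summary gives it for each library, but it was not used here, and no counting interval is given. IgG background was not subtracted here, and genes without a listed peak have no score, so a low level cannot be told from none.

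Pol II S2P peaks lay over most of the listed genes of the myogenic lineage. Of 12 satellite cell and myoblast markers, 10 had a Pol II S2P peak over the gene body, against 10405 of all 20807 autosomal protein-coding genes. Levels over the body (score spread evenly over each peak and summed over the gene, per kb) were highest at Des, the muscle intermediate filament desmin, with a mean of 115, and at Cdh15, the satellite cell cadherin, with 75.05 and 93.85. They were 49.2 at Myod1, the myogenic determination factor, 33.0 at Itga7, a laminin receptor, and 3.27 at Pax7. The 12 markers summed to 330 and 372 in the 2 libraries. Pol II S2P peaks also lay over 3 of 6 immune markers, 2 of 6 endothelial, 2 of 6 fibro-adipogenic and 3 of 6 Schwann and nerve markers, which is at or below the share over all genes. The immune sum of 240 and 265 came almost whole from 1 short gene, Cd68, at 244, while Ptprc, Adgre1 and Itgam had no Pol II S2P peak. The endothelial sum was 1.23 and 1.91, the fibro-adipogenic sum 3.12 and 3.65, and the nerve sum 10.1 and 14.4. Cdh5, Kdr, Pdgfra, Dcn and Lum had no Pol II S2P peak, and neither had Myf5 and Chodl among the 12 satellite cell and myoblast markers. Besides Cd68, peaks lay over Csf1r, Cd3e, Pecam1, Tek, Dpt, Col6a3, Sox10, Rbfox3 and Mbp. Mean levels over the body in these genes ran from 0.527 at Tek to 9.628 at Sox10. The part of other cells in the results below was not tested.

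Genes with both marks were long, and genes with Pol II S2P alone were short. Median gene length was 39.9 kb (quartiles 19.6 and 88.3) with both marks, 20.6 kb with H4K20me1 alone and 8.31 kb with Pol II S2P alone. The share of listed genes that carried both marks was 8.16% below 5 kb, 37.5% from 10 to 20 kb, 61.3% from 50 to 100 kb and 68.8% above 200 kb. Conversely, Pol II S2P alone marked 1165 of 2562 genes below 5 kb and 30 of 924 above 200 kb. Since a longer gene offers more room for a peak, the levels of the classes were also compared inside length classes.

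Over all genes, H4K20me1 per kb was about equal with and without Pol II S2P. The median was 17.8 and 23.1 in the 7412 genes with both marks and 18.1 and 24.5 in the 6351 genes with H4K20me1 alone, a log2 ratio of -0.06 ± 0.04 (SD, n = 2 libraries). By this listing, near equality over all genes went with opposite differences in short and long genes. Below 5 kb the genes with both marks stood at 36.2 and 48.2 and those with H4K20me1 alone at 135 and 181, a ratio of 0.267. Many of these peaks reach outside short genes. Counting only the score over the body of protein-coding genes, whatever gene a peak is listed with, the ratio below 5 kb was 0.845. From 5 to 10 kb the ratio was 0.889 (0.99 over the body). From 10 to 20 kb it was 1.33, with 22.5 and 28.9 against 16.5 and 22.2. It was 1.52 at 20 to 50 kb, 1.74 at 50 to 100 kb and 2.36 at 100 to 200 kb. Above 200 kb genes with both marks stood at 6.55 and 8.85 and those with H4K20me1 alone at 1.85 and 2.71, a ratio of 3.40. Over the body alone the ratio was 1.17 at 10 to 20 kb, 1.3 at 20 to 50 kb, 1.46 at 50 to 100 kb, 2.17 at 100 to 200 kb and 3.70 above 200 kb. The higher level of long genes with both marks was thus found either way. The ratios by listing include non-coding genes, and those over the body do not. The 2 ratios below 5 kb thus differ both in how peaks were counted and in the genes compared, and the parts of each were not separated. By listing, both libraries gave the same direction in each of the 7 length classes. With the ratio taken inside each length class and the median class reported, the log2 ratio turned from -0.06 to 0.60, and it was also above 0 in protein-coding genes alone (0.10) and in genes of at least 5 kb (0.33).

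**Figure D1:**
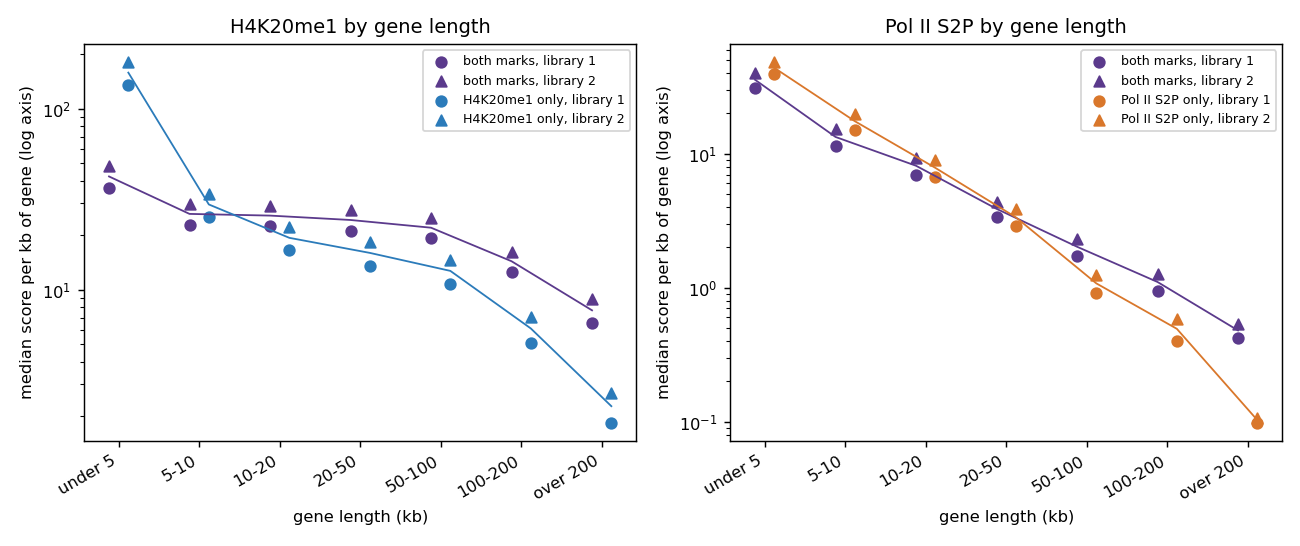
Median score per kb of gene (log axis) in each gene length class for H4K20me1 (left) and Pol II S2P (right), with genes of both marks in purple and genes of 1 mark in blue or orange. Circles are Ctrl library 1, triangles Ctrl library 2 and lines their mean; for H4K20me1 the purple points lie below the blue ones under 10 kb and above them from 10 kb on, reaching a ratio of 3.40 above 200 kb.

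Pol II S2P per kb behaved alike. Its median was 2.71 and 3.70 in genes with both marks and 11.8 and 15.2 in genes with Pol II S2P alone, a log2 ratio of -2.08 ± 0.06 (SD, n = 2 libraries). Inside length classes the ratio was 0.813 below 5 kb, 0.762 from 5 to 10 kb, 1.04 from 10 to 20 kb, 1.16 from 20 to 50 kb and 1.88 from 50 to 100 kb. It was 2.26 from 100 to 200 kb and 4.64 above 200 kb, where Pol II S2P alone was carried by 55 and 30 genes. The median over length classes was a log2 ratio of 0.18, opposite in sign to that over all genes.

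Among the 7412 genes with both marks the 2 levels were weakly related. Spearman's rho of the mean levels was 0.28, and it ran from 0.26 to 0.30 over the 4 pairings of an H4K20me1 with a Pol II S2P library. The points share gene length as the divisor of both levels. Longer genes had lower levels of H4K20me1 (rho with length -0.32) and of Pol II S2P (rho -0.62), and with length taken out of the ranks rho was 0.12. Inside length classes rho was 0.23 below 5 kb, between 0.04 and 0.17 from 5 to 200 kb, and 0.40 above 200 kb. Per kb of peak in place of per kb of gene, rho was -0.0021, so the density inside the peaks of the 2 marks was not related. These are correlations across genes, which are not independent replicates.

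**Figure D2:**
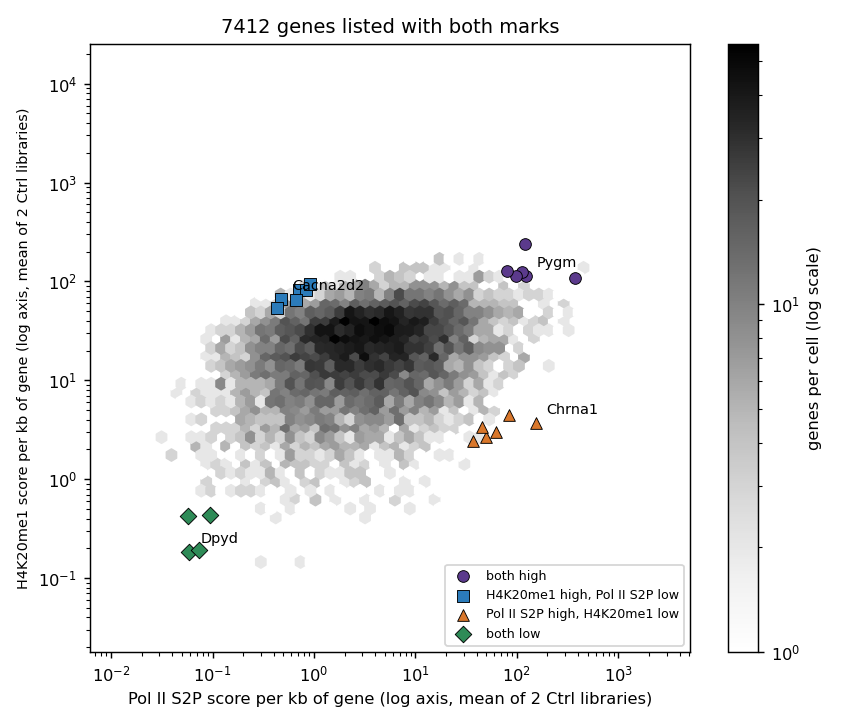
Level of H4K20me1 against that of Pol II S2P in the 7412 genes listed with both marks, as score per kb of gene (mean of 2 Ctrl libraries, both axes log), with darker cells holding more genes. Coloured symbols are the named genes of the 4 extreme groups; the cloud slopes upward only weakly, with a rho of 0.28.

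H4K20me1 stood higher over gene bodies with a Pol II S2P peak than over those without one, and in genes of 5 to 200 kb it differed less over the levels of Pol II S2P than between a peak and none. To free this comparison from the gene each peak was listed with, the score was spread evenly over each peak and summed over all 20807 autosomal protein-coding gene bodies. In genes of 20 to 50 kb the median H4K20me1 level was 8.62 and 11.4 over the 2066 bodies with no Pol II S2P peak. It was 18.2 and 23.5 in the lowest quintile of the bodies with one (565 genes, median Pol II S2P level 0.643) and 20.2 and 25.9 in the highest quintile (median Pol II S2P level 16.3). Inside each library, the lowest quintile was thus 2.11 and 2.06 times the level without a peak, and the highest quintile 1.11 and 1.10 times the lowest.

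From 10 to 200 kb the first step was the larger in every length class. In genes of 10 to 20 kb the H4K20me1 median was 6.30 and 8.49 without Pol II S2P, 15.8 and 20.6 in the lowest quintile and 17.6 and 21.7 in the highest. In genes of 50 to 100 kb it was 8.49 and 11.1 without, 17.4 and 23.0 in the lowest quintile and 19.4 and 24.6 in the highest. In genes of 100 to 200 kb the 3 values were lower, at 3.71 and 5.15, 10.8 and 14.4, and 13.6 and 17.2. The highest quintile exceeded the lowest in both libraries in each of these classes, by 1.05 to 1.26 times.

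The longest and the shortest genes differed from this. Above 200 kb H4K20me1 went up through all quintiles, from 2.09 and 2.81 in the lowest to 12.2 and 16.1 in the highest, a ratio of 5.87 and 5.72, and it was 0.882 and 1.3 without Pol II S2P. Median length in these genes went from 456 kb in the lowest quintile to 268 kb in the highest. Spearman's correlation between the 2 body levels was 0.39 in the 608 genes above 200 kb with both marks and 0.05 to 0.16 in the other classes. Below 5 kb the median was 0 without Pol II S2P, 9.001 and 11.4 in the lowest quintile, 5.12 and 6.79 in the fourth and 8.71 and 10.6 in the highest. The genes differed widely around these medians. In genes of 20 to 50 kb the quartiles were 0 and 21.8 without Pol II S2P and 12.3 and 34.2 in the highest quintile, so many bodies without a Pol II S2P peak held as much H4K20me1 as bodies with one. An H4K20me1 peak lay over 71.3% of the bodies without Pol II S2P in that length class and over 94.2% to 97.2% of the bodies in the 5 quintiles.

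**Figure D3:**
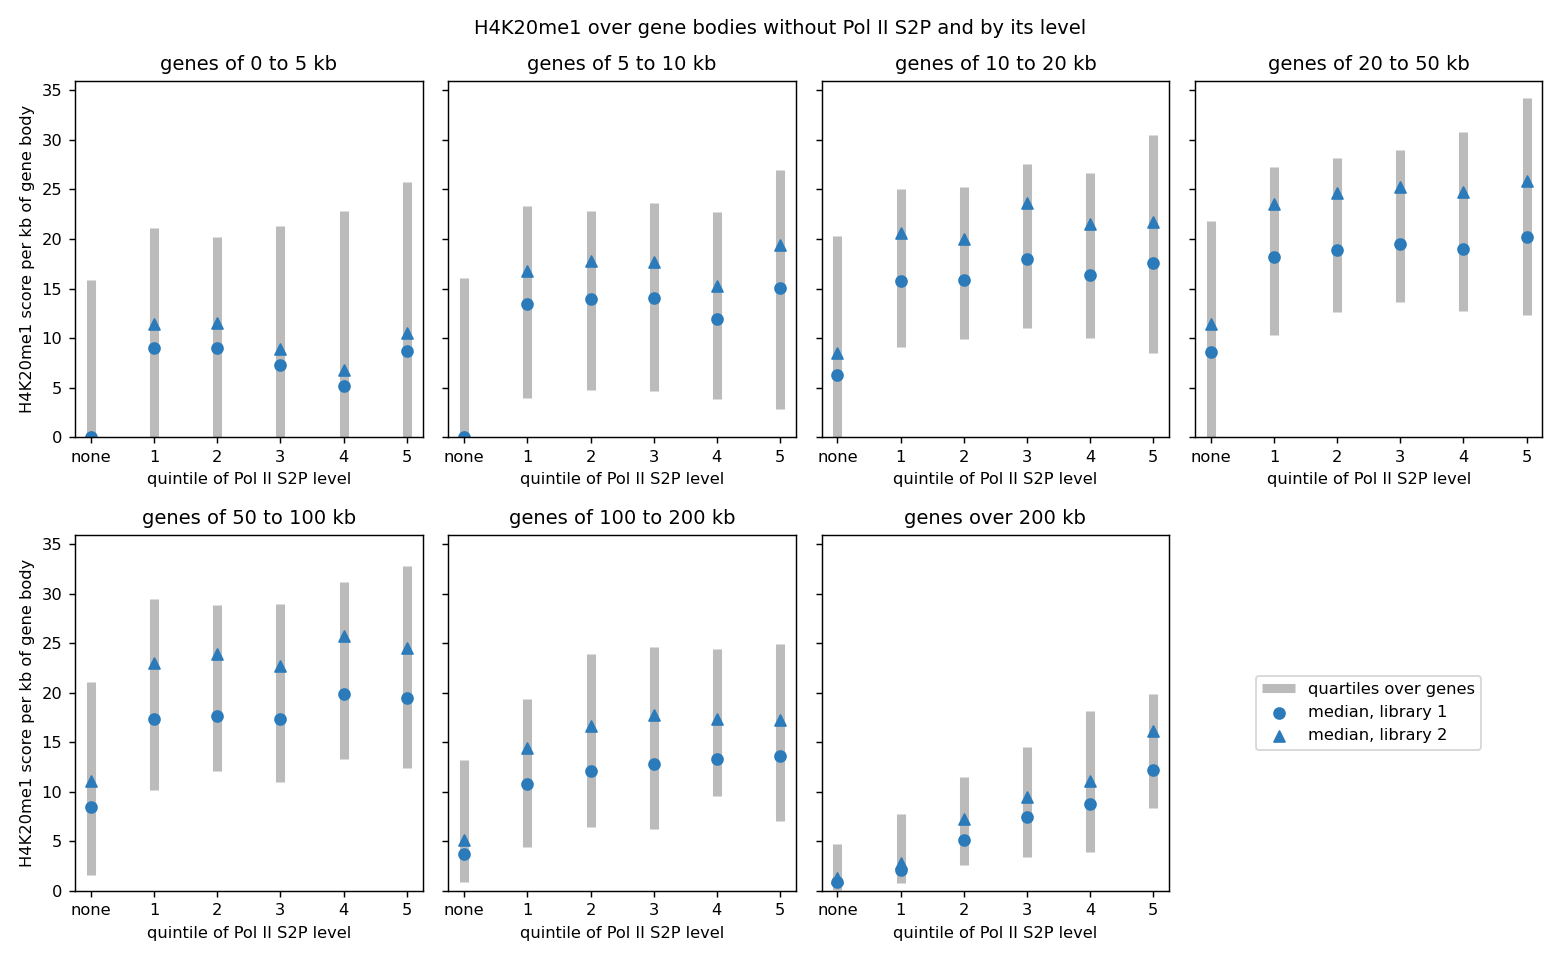
H4K20me1 score per kb of gene body in protein-coding genes of 7 length classes, for genes with no Pol II S2P peak over the body (none) and for genes with one, in quintiles from the lowest (1) to the highest (5) Pol II S2P level. Circles and triangles are medians in Ctrl libraries 1 and 2 and grey bars the quartiles over genes of the mean of both; in genes of 20 to 50 kb the medians go from 8.62 and 11.4 (none) to 18.2 and 23.5 (quintile 1) and 20.2 and 25.9 (quintile 5), and in genes over 200 kb they go up through every quintile, from 2.09 and 2.81 to 12.2 and 16.1.

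Along the gene the 2 marks lay in different places. In the 3091 protein-coding genes of at least 50 kb with both marks over the body, mean Pol II S2P per kb was 23.8 and 30.2 in the kb before the gene start and 16.5 and 21.5 in the first kb, against 1.97 and 2.52 from 5 to 10 kb inside the gene and 2.09 and 2.79 from 40 to 50 kb. H4K20me1 in the same genes was 8.72 and 11.4 from 20 to 10 kb upstream, 10.7 and 14.0 in the first kb and 15.7 and 20.6 from 5 to 10 kb, and it stayed at 15.3 and 20.2 from 40 to 50 kb. Its plateau thus lay inside the gene, beyond the Pol II S2P maximum at the start. The higher H4K20me1 level inside than upstream is partly set by the class, since these genes were picked by an H4K20me1 peak over the body. Scores were also spread evenly over broad peaks, with a median of 8400 bases, so the shape near the start is not resolved. In the 1292 such genes with H4K20me1 alone it was 10.4 and 14.1 in the first kb, 12.6 and 17.3 from 4 to 5 kb inside and 9.93 and 13.5 from 40 to 50 kb. The levels at the start were thus alike in both classes, and they parted inside the gene.

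**Figure D4:**
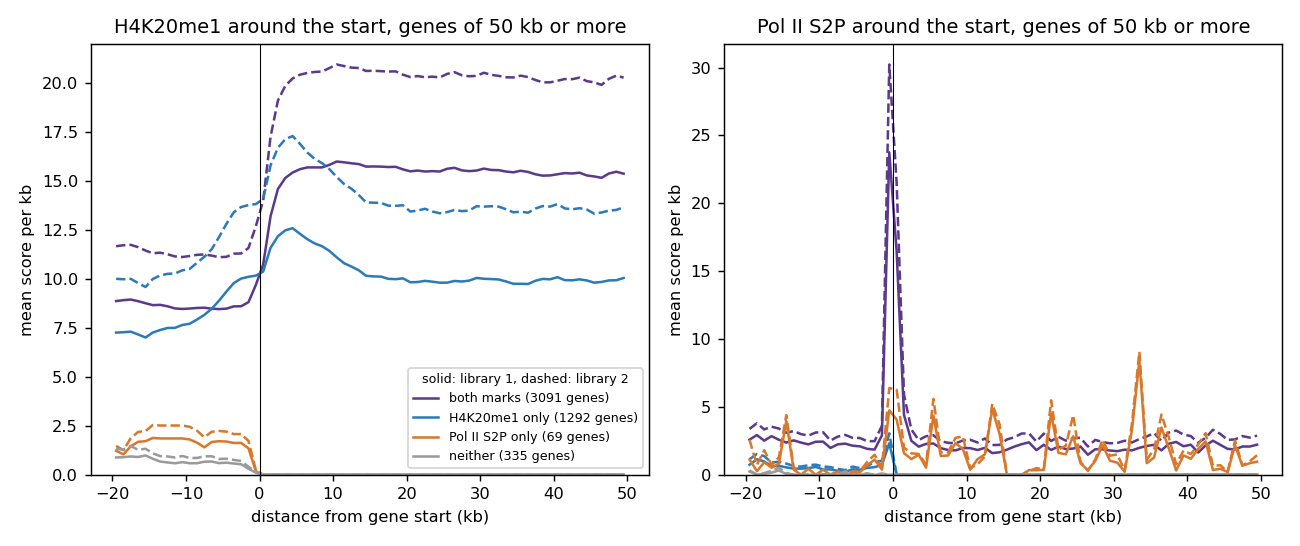
Mean score per kb in 1 kb bins from 20 kb upstream to 50 kb inside protein-coding genes of at least 50 kb, for H4K20me1 (left) and Pol II S2P (right), by the marks found over the gene body. Solid lines are Ctrl library 1 and dashed lines library 2; with both marks Pol II S2P peaks at the start (23.8 and 30.2 in the kb before it) and H4K20me1 reaches its plateau of 15.7 and 20.6 after it, while the classes without a mark are at 0 inside the gene by definition. Classes with a mark were picked by a peak of it over the body.

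Pol II S2P peaks lay inside H4K20me1 peaks more often in genes with both marks. Of the 29562 autosomal Pol II S2P peaks listed with such genes, 73.4% overlapped an H4K20me1 peak, against 54.2% of the 7686 peaks of genes with Pol II S2P alone and 50.4% of the 13442 peaks with no gene. H4K20me1 peaks cover 24.7% of the autosomes. The first share is partly set by the class itself, since these genes hold an H4K20me1 peak. In 3918 of the 7412 genes every Pol II S2P peak overlapped H4K20me1, and in 1429 none did, so that 19.3% of the genes with both marks carried them in separate places. Median H4K20me1 per kb was 29.2 in the first set and 9.58 in the second. Pol II S2P peaks inside H4K20me1 had a median mean score of 37.5 and those outside of 45.0. Peaks within 1 kb of the gene start made up 13.8% of the Pol II S2P peaks in genes with both marks and 33.9% in genes with Pol II S2P alone.

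Class and overlap are not the same, because each peak is listed with 1 gene only. Among 20807 autosomal protein-coding genes, 6999 were listed with both marks, 4558 with H4K20me1 alone, 2617 with Pol II S2P alone and 6633 with neither. An H4K20me1 peak not listed with the gene lay over 1699 (64.9%) of the genes with Pol II S2P alone, whereas a Pol II S2P peak listed elsewhere lay over only 214 (4.69%) of those with H4K20me1 alone. By any overlap, 9364 protein-coding genes had both marks, 5714 H4K20me1, 1041 Pol II S2P and 4688 neither. Genes with Pol II S2P alone were thus mostly overlapped by H4K20me1 that was listed elsewhere. Over all annotated autosomal genes, non-coding ones included, the overlap counts were 11326, 13903 and 2156.

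One locus concentrates this effect. The identifier deposited with the symbol Galnt2 is Gm20388 in GENCODE M21, a read-through gene at chr8:119910841-124345722 (GRCm38) that spans 4435 kb. It collected 140 H4K20me1 and 357 Pol II S2P peaks, and all 71 protein-coding genes inside it were listed with neither mark, although 45 of them were overlapped by both. Cdh15, at chr8:122847966-122867397, is one of these. It is covered by H4K20me1 over its full length, with 45.2 and 56.5 per kb of body, and by Pol II S2P over 46.9% of it.

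Genes of different kinds were found in different classes. The lists used here were gene families and functional groups. By listing, 33.6% of all 20807 protein-coding genes had both marks, 21.9% H4K20me1 alone, 12.6% Pol II S2P alone and 31.9% neither. By overlap these shares were 45.0%, 27.46%, 5.003% and 22.53%, and counts by overlap are read against them. Levels of single genes in this section are sums over listed peaks, and where these reach far outside the gene the level over the body is given too. Pol II elongation factors promote or restrain elongation. Of 26 such genes 18 had both, 1 H4K20me1 and 6 Pol II S2P alone, at a median length of 29.8 kb against 17.6 kb for all genes. By listed score Nelfb, a subunit of the negative elongation factor, had the highest H4K20me1 level, a mean of 77.1 per kb, but 30% of its peak lay in the gene and over the body it had 23.3, below the 33.2 of Rtf1, a subunit of the Paf1 complex. Hexim1, the inhibitor of P-TEFb, had the highest listed Pol II S2P level, at 122 per kb and 60.7 over the body. Of 10 enzymes and readers of H4K20 methylation and related proteins, 8 had both marks, at a median length of 29.7 kb. By listed score per kb Bahd1, a heterochromatin protein, was the highest for H4K20me1, with scores of 1453 and 1953, but 40% of its peak lay in the gene. Over the body it had 27.0 per kb and Phf2, a histone demethylase, 39.5.

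Glycolysis genes mostly carried both marks, and replication genes did so by overlap. Of 13 glycolysis enzymes 8 had both and 4 Pol II S2P alone, and by overlap 12 had both, at a median length of 23.0 kb. Pkm, which makes pyruvate, scored 1057 and 1245 for H4K20me1 and 2187 and 2806 for Pol II S2P. Eno1, the enolase, stood at 84.6 per kb for H4K20me1, or 33.0 over the body, and 67.2 for Pol II S2P. Of 19 replication licensing and fork genes 8 had both marks by listing and 16 by overlap, with Mcm5, a subunit of the replicative helicase, highest for H4K20me1 at 51.9 per kb (33.1 over the body) and Mcm7, another, highest for Pol II S2P at 83.6. Collagens, which are long, with a median of 111 kb, had both in 27 of 42, with H4K20me1 highest at Col5a1, 50.4 per kb. By overlap 29 of the 42 had both. This is near the share over all protein-coding genes of 100 to 200 kb, of which 68.4% had both by overlap.

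Most ribosomal protein genes were listed with Pol II S2P alone. Of 79 cytosolic ribosomal protein genes 55 were, 18 had both and none had H4K20me1 alone. By overlap 46 had both and 30 Pol II S2P alone, so the list turned from mostly 1 mark to mostly 2 with the way of counting. Their Pol II S2P medians were 48.78 and 55 per kb against 4.14 and 5.64 for all listed protein-coding genes, at a median length of 3.43 kb against 17.6. Much of this gap goes with length. Over all listed genes below 5 kb, non-coding ones included, the medians were 39.2 and 48.4 with Pol II S2P alone and 31.2 and 40.3 with both marks. Rps12 reached scores of 2238 and 2588 for Pol II S2P with no H4K20me1 peak, though 10.4% of its peaks lay in the gene and its level over the body was 105 per kb. Of 67 replication-dependent histone genes, which are transcribed in S phase, 32 had Pol II S2P alone and 33 neither, and this list changed little by overlap, with 39 and 23. Only 5 of the 67 had an H4K20me1 peak over the body. Their median length of 0.539 kb was the shortest of all lists, and they were not compared with other genes of that length. Of 26 cytoskeletal genes of proliferating cells 14 had both and 12 Pol II S2P alone, and by overlap 19 and 7. Actb, the cytoplasmic actin, had the highest listed Pol II S2P level of them at 921 per kb and no H4K20me1, and over the body it had 213 per kb. Vim, vimentin, had 171 for Pol II S2P and 18.9 for H4K20me1 over the body. Of 20 immediate early genes, 7 had both and 10 Pol II S2P alone by listing, and 10 and 7 by overlap. Jun was the highest of them by listing at 283 Pol II S2P per kb, with 81.7 over the body.

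Most potassium channel genes had H4K20me1 alone, and most chemoreceptor genes had neither mark. Of 79 potassium channel genes 49 had H4K20me1 alone and 13 both marks, at a median length of 29.6 kb. Kcna5, a voltage-gated channel, was the highest of them by listing with H4K20me1 scores of 1433 and 2138, from a peak that lay almost wholly outside this short gene, and over the body it had 28.4 per kb. Of 53 keratin genes 25 had H4K20me1 alone and 26 neither, and by overlap 39 had H4K20me1 alone. Of 1087 olfactory receptor genes 1007 had neither mark and 68 H4K20me1 alone, and of 326 vomeronasal receptor genes 315 had neither. Of 39 Hox genes 6 had H4K20me1 alone, 3 both, 5 Pol II S2P alone and 25 neither by listing, whereas by overlap 23 had H4K20me1 alone, 10 both, 3 Pol II S2P alone and 3 neither, since each peak over a Hox cluster is listed with 1 of its genes. Hoxd11 was the highest for H4K20me1, with scores of 2092 and 3052 and 52.9 per kb over the body.

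**Figure D5:**
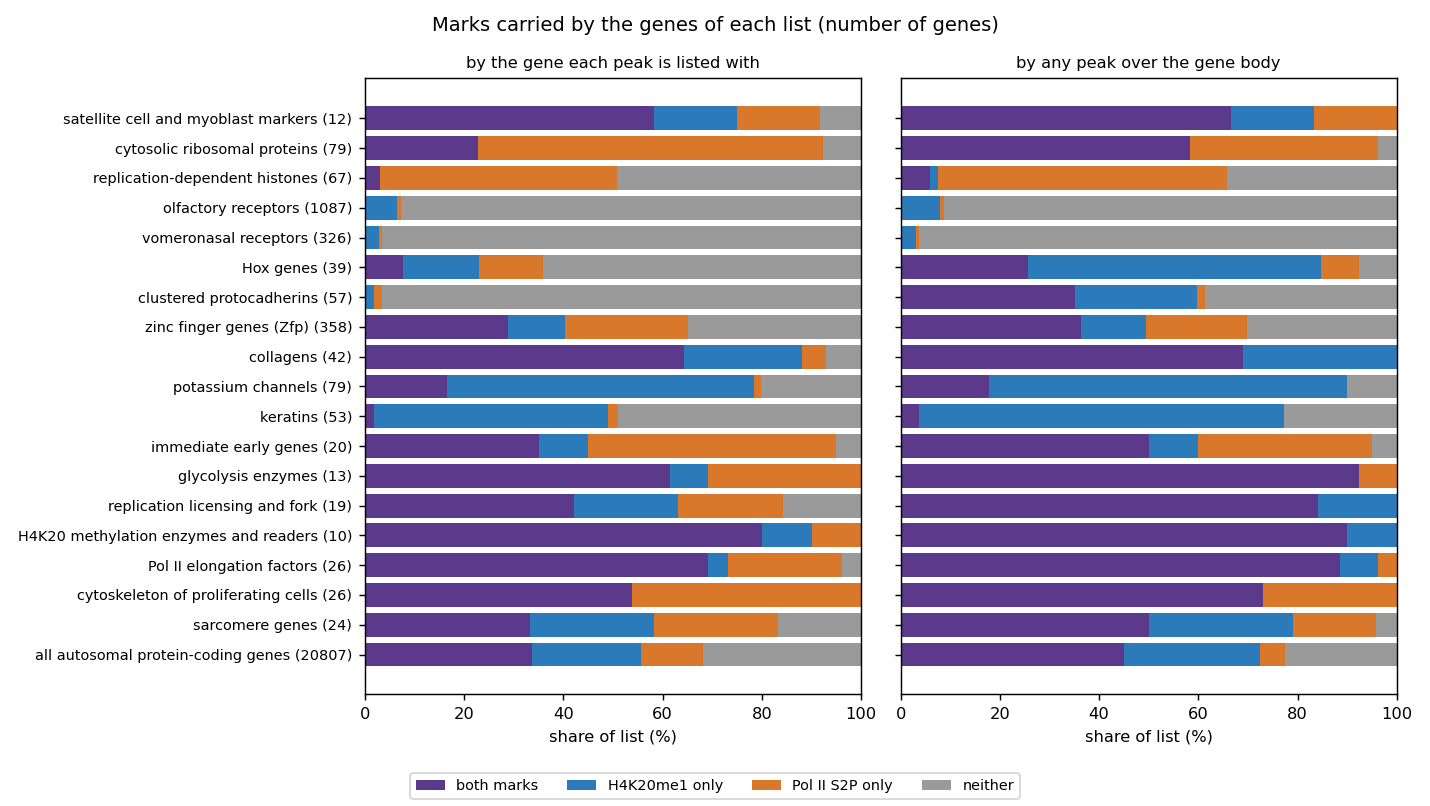
Share of the genes of each list (number of autosomal protein-coding genes in brackets) with both marks, H4K20me1 alone, Pol II S2P alone or neither, by the gene each peak is listed with (left) and by any peak over the gene body (right). Cytosolic ribosomal protein genes go from 18 to 46 of 79 with both marks between the panels, while histone genes keep few H4K20me1 peaks in either.

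Sarcomere genes, which are switched on when myoblasts differentiate, were mixed. Of 24, 8 had both marks, 6 H4K20me1 alone, 6 Pol II S2P alone and 4 neither by listing. By overlap 12 had both, 7 H4K20me1 alone, 4 Pol II S2P alone and 1 neither. Mylpf, the fast myosin light chain, had the highest listed Pol II S2P level, 149.7 per kb, with 81.4 over the body. Its Pol II S2P scores were 773 and 846, and it had no listed H4K20me1 peak. Myh1, a fast myosin heavy chain of mature fibres, had H4K20me1 scores of 42 and 68 and no Pol II S2P. Among the satellite cell markers Pax7 had both marks, at 533 and 708 for H4K20me1 and 274 and 356 for Pol II S2P. Myod1 and Myog had Pol II S2P alone and Myf5 H4K20me1 alone.

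The extremes were sought among 5310 protein-coding genes of at least 5 kb with both marks and a mean sum over 50 for each. The quartile groups of the 2 levels were not evenly combined. Both levels were in the highest quartile group in 492 genes (9.27%) and both in the lowest in 530 (9.98%), while H4K20me1 was in the highest and Pol II S2P in the lowest quartile group in 140 (2.64%) and the reverse was true of 213 (4.01%). The corners kept to their quartile group in every library in 87.4%, 94.0%, 74.3% and 81.7% of these genes. Length differed between them, with medians of 19.5, 180, 76.0 and 22.6 kb.

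The genes named as high for both marks were Pygm, Srsf6, Hnrnpdl, Rps15a, Sfpq and Rflna. Sfpq, a splicing factor of paraspeckles at chr4:127021324-127037013, scored 1644 and 1922 for H4K20me1 and 1304 and 1755 for Pol II S2P, at percentiles 99.4 and 98.7 of the level per kb. Hnrnpdl, an RNA-binding protein of the hnRNP family, scored 533 and 788 for H4K20me1 and 2019 and 2578 for Pol II S2P. Srsf6 is a splicing factor of the SR family and Rps15a a ribosomal protein. Their single H4K20me1 peaks reach beyond the gene, with 10% to 50% of each inside it in the 6 genes, so part of the score belongs to neighbours. At Pygm, the muscle glycogen phosphorylase, only 20% of the Pol II S2P peak lay in the gene. With scores weighted by the fraction in the gene, 1 of the 6, Sfpq, was named again, beside Rbm39, Masp2, Ywhaz, Hnrnpc and Ube2d3.

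Genes high for H4K20me1 and low for Pol II S2P were Cacna2d2, Plch2, St7l, Fbrsl1, Golga4 and Cdh22. Cacna2d2, a calcium channel subunit at chr9:107399612-107529343, scored 7262 and 10159 for H4K20me1 and 56 and 67 for Pol II S2P. Cdh22, a cadherin, scored 5408 and 7773 for H4K20me1 and 50 and 57 for Pol II S2P. The Pol II S2P of this group came from 1 or 2 peaks per gene, and H4K20me1 covered 92.2% to 100% of each gene. None of the 6 was named with weighted scores, where Ehmt1, Prdm16, Smurf2, Chd6, Stt3b and Pan3 took their place.

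Genes high for Pol II S2P and low for H4K20me1 were steadier under weighting, with 4 of 6 named again. Chrna1, the muscle acetylcholine receptor subunit at chr2:73563215-73580338, scored 2473 and 2754 for Pol II S2P in 12 peaks and 53 and 73 for H4K20me1. Mxra7 scored 867 and 987 for Pol II S2P and 47 and 75 for H4K20me1. Cxxc5, a CpG-binding zinc finger protein, scored 2456 and 2910 and 136 and 150. The others were Gm49450, Frmd8 and Doc2b, and at Doc2b peaks not listed with it brought H4K20me1 over the body to 49.5 per kb.

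The genes named as low for both were Dpyd, Lsamp, Nrxn3 and Magi2, of 871 to 2197 kb. Their length follows from the rule, since a mean sum over 50 at so low a level per kb needs a long gene. Lsamp and Nrxn3 encode neuronal adhesion proteins, and Dpyd the enzyme that degrades pyrimidines. Dpyd scored 137 and 186 for H4K20me1 and 58 and 45 for Pol II S2P, and 0.988% of it lay in H4K20me1 peaks. All 4 were named with weighted scores too.

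Among protein-coding genes of at least 5 kb, the highest listed H4K20me1 levels without Pol II S2P were at Lhx1, Slco4a1, Hmx1 and Krt2. Lhx1 and Hmx1 are homeobox genes of embryonic tissues and Krt2 is an epidermal keratin. Their levels of 432 to 850 per kb came from peaks of 94.8 to 340 kb of which 0% to 10% lay in the gene, and over the body itself they had 34.1 to 41.5 per kb. The Hmx1 peak scored 6596 and 9081 and contained no Pol II S2P peak. That of Slco4a1 contained 18, which were listed with other genes or none. Among genes of that length with Pol II S2P alone its listed level was highest at 2210016F16Rik, Hnrnpa3, Iffo1 and Acy1, with 345, 273, 233 and 197 per kb. Over the body they had 35.4, 77.2, 164 and 143.5 per kb, and at 2210016F16Rik 19.5% of the Pol II S2P peaks lay in the gene. With weighted scores 0 of these 4 were named again, against 2 of the 4 with H4K20me1 alone. Hnrnpa3, an hnRNP protein, scored 2430 and 3104 in 9 Pol II S2P peaks, and 2.04% of its body lay in H4K20me1 peaks listed elsewhere. Such peaks covered 0% of 2210016F16Rik, 14.3% of Iffo1 and 100% of Acy1, which had 19.9 per kb of H4K20me1 over its body.

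The densest broad H4K20me1 peaks were nearly all listed with genes of both marks. Among the 8232 autosomal H4K20me1 peaks of at least 20 kb, 67.7% were listed with such genes, and among the 100 with the highest score per kb of peak 97 were. The densest, of 41.6 kb, lay wholly in Celf1, an RNA-binding protein, with scores of 2457 and 3309. Others among the densest were at Vapa, Ppp2r2a and Gnb1, at Ctnnb1, which encodes beta-catenin, and at Yy1, a transcription factor. This list was drawn after the values were seen.

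Promoters of the classes differed in CpG content. Promoters were read as 250 bases before to 50 after each GENCODE start in GRCm38.p6. The median ratio of observed to expected CpG was 0.74 in the 6999 genes with both marks, 0.69 with Pol II S2P alone, 0.52 with H4K20me1 alone and 0.21 with neither, and the share above 0.6 was 67.1%, 60.4%, 43.3% and 18.3%, against 45.5% of all 20807. Inside length classes up to 50 kb the share above 0.6 was 55.8% to 68.9% with both marks, 58.4% to 63.03% with Pol II S2P alone, 27.5% to 47.6% with H4K20me1 alone and 14.5% to 22.5% with neither. In the classes above 50 kb the order of the single marks was reversed. Pol II S2P alone, with 49, 25 and 19 genes, had 40.8%, 44.0% and 47.4%, and H4K20me1 alone 53.05%, 48.3% and 54.1%. The motif TATAAA, on either strand of the 250 bases, was found in 5.69%, 8.06%, 10.6% and 19.9%, against 11.6% of all promoters. Among genes with both marks the share above 0.6 went from 52.3% in the lowest quartile group of H4K20me1 to 78.1% in the highest, and for quartile groups of Pol II S2P it was 63.9%, 68.6%, 69.6% and 66.1%. CpG content thus ran with the level of H4K20me1 and hardly with that of Pol II S2P in these genes. Median length was 66.2 kb in the lowest and 27.4 kb in the highest H4K20me1 quartile group, and 103 and 17.9 kb in those of Pol II S2P.

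The 250 bases before the start of 4 named genes show a range of CpG content, but not the trend with H4K20me1. Sfpq, which is high for H4K20me1, has 9 CpG, while Hnrnpa3, with no listed H4K20me1 peak, has 41. The 4 sequences were chosen after the values were seen, each from a different group. They are written 5′ to 3′ on the strand of the gene with CpG in capitals. Sfpq is high for both marks, Cdh22 is high for H4K20me1, Chrna1 is high for Pol II S2P and Hnrnpa3 has Pol II S2P alone.
Sfpq, chr4:127021074-127021323, plus strand, 9 CpG: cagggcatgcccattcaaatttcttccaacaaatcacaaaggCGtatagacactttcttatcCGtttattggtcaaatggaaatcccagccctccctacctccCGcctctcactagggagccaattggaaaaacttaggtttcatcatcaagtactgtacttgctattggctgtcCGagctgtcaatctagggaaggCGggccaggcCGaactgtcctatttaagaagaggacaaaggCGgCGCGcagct
Cdh22, chr2:165234854-165235103, minus strand, 27 CpG: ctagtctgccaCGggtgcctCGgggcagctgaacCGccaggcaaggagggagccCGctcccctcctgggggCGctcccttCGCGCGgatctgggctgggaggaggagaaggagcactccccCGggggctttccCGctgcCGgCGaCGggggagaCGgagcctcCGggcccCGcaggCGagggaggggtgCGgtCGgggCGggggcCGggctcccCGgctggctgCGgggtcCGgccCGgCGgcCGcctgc
Chrna1, chr2:73580339-73580588, minus strand, 3 CpG: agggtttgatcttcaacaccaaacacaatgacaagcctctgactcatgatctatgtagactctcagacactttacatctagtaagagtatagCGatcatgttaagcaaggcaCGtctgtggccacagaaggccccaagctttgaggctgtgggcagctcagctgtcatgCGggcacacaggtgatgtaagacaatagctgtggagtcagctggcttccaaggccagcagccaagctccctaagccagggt
Hnrnpa3, chr2:75659011-75659260, plus strand, 41 CpG: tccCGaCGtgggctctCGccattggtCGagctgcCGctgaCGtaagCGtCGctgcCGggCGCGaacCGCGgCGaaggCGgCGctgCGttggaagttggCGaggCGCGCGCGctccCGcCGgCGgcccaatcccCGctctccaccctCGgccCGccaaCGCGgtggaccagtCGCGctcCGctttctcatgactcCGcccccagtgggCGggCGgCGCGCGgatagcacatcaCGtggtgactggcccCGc
The starts of Sfpq and Cdh22 lay in an H4K20me1 peak, and a Pol II S2P peak lay within 500 bases of the starts of Sfpq, Chrna1 and Hnrnpa3. Cdh22 and Hnrnpa3 thus carry CpG-rich promoters with different marks at their starts. Over all genes the start lay in an H4K20me1 peak in 51.7% with both marks, 58.8% with H4K20me1 alone, 45.8% with Pol II S2P alone and 21.5% with neither, and a Pol II S2P peak lay within 500 bases of it in 59.1%, 10.05%, 78.4% and 9.02%. Both shares ran with length in genes with both marks, from 64.7% and 85.3% below 5 kb to 44.2% and 23.8% above 200 kb.

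The class ratios of the Ctrl libraries were set against those of the sKO libraries. The log2 ratio of H4K20me1 per kb between genes with both marks and with H4K20me1 alone averaged -0.06 (SD 0.04) over the 2 Ctrl libraries and -0.08 (SD 0.02) over the 2 sKO libraries, a difference of 0.03 with p = 0.667 in a two-sided exact permutation test. For Pol II S2P the averages were -2.08 (SD 0.06) and -2.07 (SD 0.04), a difference of -0.0023 with p = 1 in the same exact test. With 2 libraries against 2 the smallest p this test allows is 0.33, so no difference of any size could have passed a threshold of 0.05.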

How the data were processed

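CUT&RUN for H4K20me1 and Pol II S2P was analysed in 2 Ctrl libraries each, with 2 sKO libraries each for 1 comparison. Per the labels and the study's methods, the authors trimmed reads with Trimmomatic 0.39 and aligned them with STAR 2.7.3a to mm10 (GRCm38), keeping unique alignments only. They removed duplicates with Picard 2.21.7 and called peaks (SICER 0.0.41 and MACS2 2.1.1 stand in the submitters' processing notes). Peaks were united over genotypes, the coverage was normalised by Drosophila spike-in, and each peak was listed with the gene of longest overlap in Ensembl 99. The deposited score is that coverage per peak, rounded to whole numbers. The deposited fraction of a peak inside its gene body is given to 1 decimal. The authors' own tests with DESeq2 were not used.

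Scores were summed per gene identifier over autosomal peaks and divided by gene length. Of 17380 genes, 17349 were in GENCODE M21, whose names are used where they differ from the deposited symbol (547 of 14074). Gene coordinates are those of GRCm38, and peak coordinates are as deposited. Promoter sequences were read from GRCm38.p6 and were identical to RefSeq's in all 5197 genes where both give the same start. A correlation across genes carries no p-value. Classes, length bins and ratios are descriptions, and the only test is the two-sided exact permutation test of 2 Ctrl against 2 sKO libraries. No test was made across marks, whose tables were normalised separately. Procedures were tested on simulated data. The genes, lists and alternatives were chosen with earlier results of these data known.

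Named genes were protein-coding, at least 5 kb long and with a mean Ctrl sum over 50 for each mark carried: 6 with the highest lower percentile, 6 with the largest difference in percentile in each direction and 4 with the lowest higher percentile among genes with both marks, and 4 of highest score per kb for each single mark, each on 1 side of the median in both libraries, plus the highest and lowest member of a list. Cell type markers were named from their lists, and Cdh15, Gm20388, the genes of the densest peaks and those named under weighted scores were named after their values were seen. Alternatives are in the closing section. Computations ran in Python 3.11.15 (pandas 2.3.3, numpy 2.4.6, scipy 1.17.1).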

Additional observations from a re-analysis of the deposited data

Results flagged for a closer look

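X-linked genes were outside the autosomal comparison and carried signal of both marks. Of 869 X-linked genes with a mark, 146 (16.8%) had both, 656 (75.5%) H4K20me1 alone and 67 Pol II S2P alone, against 42.6% with both and 36.5% with H4K20me1 alone on the autosomes. Median H4K20me1 per kb in the 146 was 32.0 and 44.0 at a median length of 44.01 kb, and in the 656 with H4K20me1 alone it was 62.7 and 88.7 at a median length of 6.81 kb. In the 146, rho with Pol II S2P was 0.20. The difference from the autosomes was not tested.

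Autosomal peaks listed with no gene were not used either. They held 7.74% of the H4K20me1 score (7.57% and 7.92% in the 2 Ctrl libraries) and 23.0% of the Pol II S2P score (22.8% and 23.2%). No level in IgG libraries was analysed here to set beside them.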

How the results depend on the processing

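Class counts were within 1.5 times of the values given under every alternative except overlap with any gene body of all annotated genes, which gave 11326 genes with both marks, 13903 with H4K20me1 and 2156 with Pol II S2P. Leaving out a replicate gave 7412 to 7414, 6349 to 6351 and 3617 to 3623, rho 0.28 in both cases, and log2 ratios of -0.08 to -0.03 for H4K20me1 and -2.12 to -2.04 for Pol II S2P.

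Other values moved. Spearman's correlation per kb (0.28) was 0.31 with a mean sum over 50, 0.21 with peaks at least 50% inside the gene, 0.26 in protein-coding genes, 0.26 in genes of at least 5 kb, 0.13 with weighted scores, 0.12 with length taken out and -0.0021 per kb of peak. The H4K20me1 log2 ratio (-0.06) reversed to 0.043, 0.37, 0.10, 0.33 and 0.31 under the first 5 of these, to 0.092 per kb of peak and to 0.60 within length classes. The Pol II S2P log2 ratio (-2.08) was -2.23 with a mean sum over 50, -2.21 in protein-coding genes, -1.38 in genes of at least 5 kb, -1.97 with weighted scores, -0.074 per kb of peak, and reversed to 0.18 within length classes. Over protein-coding gene bodies whatever the listing, chosen after seeing the data, rho was 0.13 (0.082 with length taken out), the H4K20me1 ratio 0.18 (0.36 within length classes) and the Pol II S2P ratio -1.63 (0.27). Both class ratios were under 1 below 10 kb of gene length and over 1 above it.

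For Ctrl minus sKO, the replicate block (paired by number, smallest p 0.5) gave 0.025 with an exact paired p of 0.5 for H4K20me1 and -0.0023 with an exact p = 1 for Pol II S2P. The numbers pair nothing in the labels, and library differences correlated at 0.04 and -0.04 between genotypes. Leaving out 1 library gave -0.0022 to 0.053 for H4K20me1, below 0 without Ctrl replicate 1, and -0.042 to 0.038 for Pol II S2P, above 0 without Ctrl replicate 1 and without sKO replicate 2 (0.026). With peaks at least 50% inside the gene the Pol II S2P difference was 0.0054. The lack of an IgG level limits statements on genes without a mark, and read depth was not taken into account.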
